A study of Mus musculus with 9 samples.

Results

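Satellite cells grown in T cell medium for 15 passages were compared with satellite cells from the same medium at P0, P1 and P2, using the 4 T cell medium libraries of a series of 9. The libraries were taken by their labels. Each passage is 1 library, and P15 is therefore a single sample. Limb skeletal muscle of C57/BL6/DBA mice aged 1 to 3 days, males and females pooled, was the source of the cells, which were kept on dishes coated with collagen. T cell medium was an even mixture (50:50) of T cell medium with F10 medium containing 15% FBS, supplemented with 2.5 ng/ml FGF. The 4 libraries of cytokine medium, used here for comparison, came from the same passages in F10 medium with 15% FBS, the same FGF, 5 ng/ml of both IL-1α and IL-13, and 10 ng/ml of both IFN-γ and TNF-α. The remaining library, from P0 cells in F10 medium, enters no comparison here.

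Satellite cells are the stem cells of skeletal muscle. They lie beneath the basal lamina of the muscle fibre, proliferate as myoblasts after injury or in culture, and leave the cell cycle when they fuse into multinucleated fibres. Growth factors such as FGF favour proliferation, Notch signalling through Hes and Hey repressors holds back differentiation, and genes of the sarcomere and sarcoplasmic reticulum are switched on as myoblasts differentiate. Passaged cultures can also hold differentiating myocytes and cells of other types.

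Levels are given as RPKM, which are read counts divided by gene length and by library depth. In T cell medium the depth was 13.4 M reads for P0, 16 M for P1, 16.4 M for P2 and 15.8 M for P15, taken from run 1, the first of the 2 columns of each library. The row names of the deposited table go with their values only at the start of 8 chromosomes. In those windows 24 of 25 rows of broadly expressed gene families (96.0%) averaged at least 1 RPKM in T cell medium, against 62 of 207 (30.0%) elsewhere. Only the 555 genes of the windows that reached 1 RPKM in any of the 9 libraries are described, out of 768 rows there. The defining satellite cell genes Pax7, Myf5 and Myod1 lie outside the windows, so the cell identity given by the labels was not checked.

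At P15, 6 of 7 measured genes of muscle contraction, the sarcoplasmic reticulum and muscle glycogen were at their lowest level of the 4 passages, 2 matrix metalloprotease genes and the adhesion receptor gene Cxadr were at the highest, and most other genes were close to their early level. In 485 of the 555 genes (87.4%) the P15 value differed from the mean of P0, P1 and P2 by at most 0.5 on the log2(RPKM + 1) scale, and the median difference was 0.03. In these and later counts, 2-fold means a difference of at least 1 on that scale. Low genes can fall by more than 2-fold in RPKM and go uncounted, as Popdc2, Ciita and Chrd did. P15 lay at least 2-fold above the highest early library in 4 genes (0.721% of the 555), which were Mmp10, Mmp13, Cxadr and Col8a1. It lay at least 2-fold below the lowest early library in 5 genes (0.901%), which were Srl, Actn3, Myom2, Rbfox1 and Hey1. The same shares over all 3686 rows with at least 1 RPKM, named or not, were 0.407% and 0.76%. Without P1, 9 genes instead of 5 lay below, with Popdc2, Pkia, Pcx and Ephb3 added. Without P2, 7 instead of 4 lay above, with Nfkbiz, Pla1a and Cnih2 added.

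**Figure D1:**
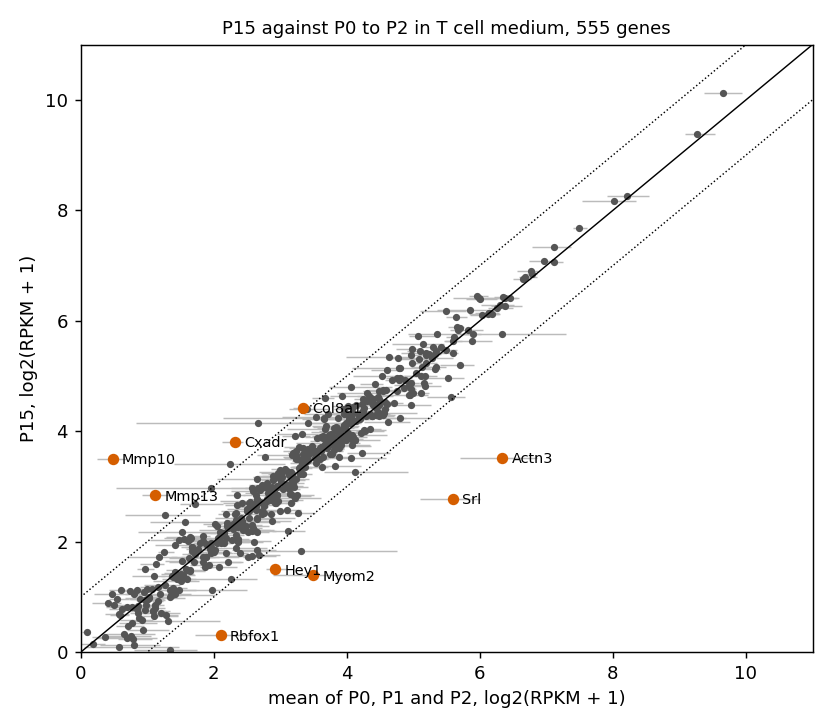
Level of each of the 555 genes at P15 (vertical axis) against the mean of P0, P1 and P2 (horizontal axis), both as log2(RPKM + 1), with grey lines from the lowest to the highest early library, a solid line of equality and dotted lines at 2-fold. The 9 named genes in orange lie at least 2-fold outside all 3 early libraries, 4 above and 5 below.

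limma was fitted to all 3686 rows and the 8 libraries of both media, with the spread among P0, P1 and P2 in place of replicate spread and the lone P15 library assumed to vary in the same way. At an adjusted p under 0.05 it called 0 genes higher (0.0%) and 0 lower (0.0%) at P15. At an unadjusted p under 0.05 it gave 30 genes in each direction (5.41%), against 5.02% higher and 6.84% lower over all rows. The lowest adjusted p was 0.07, for Srl and Col8a1. Some other settings of the fit called genes, most with passage terms shared by the 2 media. Those terms remove from the spread the differences among P0, P1 and P2 that both media share. Among the 555 genes, that fit called Abcb1b, Col8a1, Cxadr and A330021E22Rik higher. It called Actn3, Adamts1, Aldh3b1, Hey1, Myom2, Pkia, Rbfox1, Srl and Unc93b1 lower. Some rows that cannot be named were called as well. Passages are not repeats of each other, and no source says that the libraries were separate cultures, so these p-values measure only the spread between these samples.

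The muscle list held 9 genes, of which 7 reached 1 RPKM. All 7 had a P15 value under the early mean, where 251 of the 555 genes and 1902 of all 3686 rows were. The median difference was -1.30 on the log2(RPKM + 1) scale, beside 0.03 over the 555 genes, and 6 of the 7 were under every early library, where 23.2% of the 555 genes and 27.8% of all rows were. Without P1 it was 7 of 7. Leaving out a library can only raise such counts, and the share of the 555 genes in that setting was not counted. The gene lists were chosen with earlier results of these data known, so these shares are a description and no test. limma called 0 of the 7, and with passage terms shared by both media it called 4 lower, which were Actn3, Srl, Myom2 and Pkia. Srl had the lowest adjusted p of that limma fit among the 555 genes, but not among all rows. Of all settings, only that fit and the fit without P1 called Srl. The levels of all 9 listed genes summed to 223, 145 and 292 RPKM at the early passages and to 56.1 at P15. In these bulk libraries, fewer cells of a type and less RNA per cell cannot be told apart.

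Actn3, the α-actinin that anchors actin at the Z-disc of fast fibres (chr19:4861216-4877909 on mm10, minus strand), stood at 86.9, 50.8 and 115.5 RPKM at P0, P1 and P2 and at 10.5 at P15. Srl encodes sarcalumenin, a calcium-binding protein of the sarcoplasmic reticulum (chr16:4480216-4541816, minus strand), and stood at 50.4, 33.4, 63.3 and 5.85 RPKM in the same order. Myom2, a protein that links myosin filaments at the M-band (chr8:15057653-15133541, plus strand), stood at 10.2, 6.42, 16.3 and 1.62 RPKM. For all 3 genes the P1 library was the lowest early one and P2 the highest, and P15 was clear of both. Against P1, the P15 level was 0.205 times as high for Actn3 (95% counting interval 0.186 to 0.226), 0.178 times for Srl (0.161 to 0.195) and 0.246 times for Myom2 (0.211 to 0.285). These intervals cover counting error only. The limma difference from the early mean was -2.82 ± 0.58 (SE) for Actn3 with an adjusted p of 0.14, -2.82 ± 0.37 for Srl with 0.07 and -2.11 ± 0.47 for Myom2 with 0.149.

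The other 4 muscle genes had smaller differences on the log2(RPKM + 1) scale, which understates low genes such as Popdc2. Popdc2, a cAMP-binding membrane protein of striated muscle, stood at 2.35, 0.742 and 1.80 RPKM at the early passages and at 0.028 at P15, where run 1 held 1 read. Its P15 level was 0.0376 times that of P1, with a counting interval of 0.000918 to 0.228. Pkia, a muscle-rich inhibitor of cAMP-dependent protein kinase, stood at 51.5, 36.1, 53.7 and 23.6 RPKM, 0.65 times the P1 level at P15. Pygm, the muscle glycogen phosphorylase, was at 12.8 and 11.6 RPKM at P0 and P1, at 29.3 at P2 and at 8.55 at P15. Svil, an actin- and myosin-binding protein that many cell types express, overlapped, with 5.93 RPKM at P15 and 5.78 at P1. Of the 7 genes it alone had a P15 value inside the early range.

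**Figure D2:**
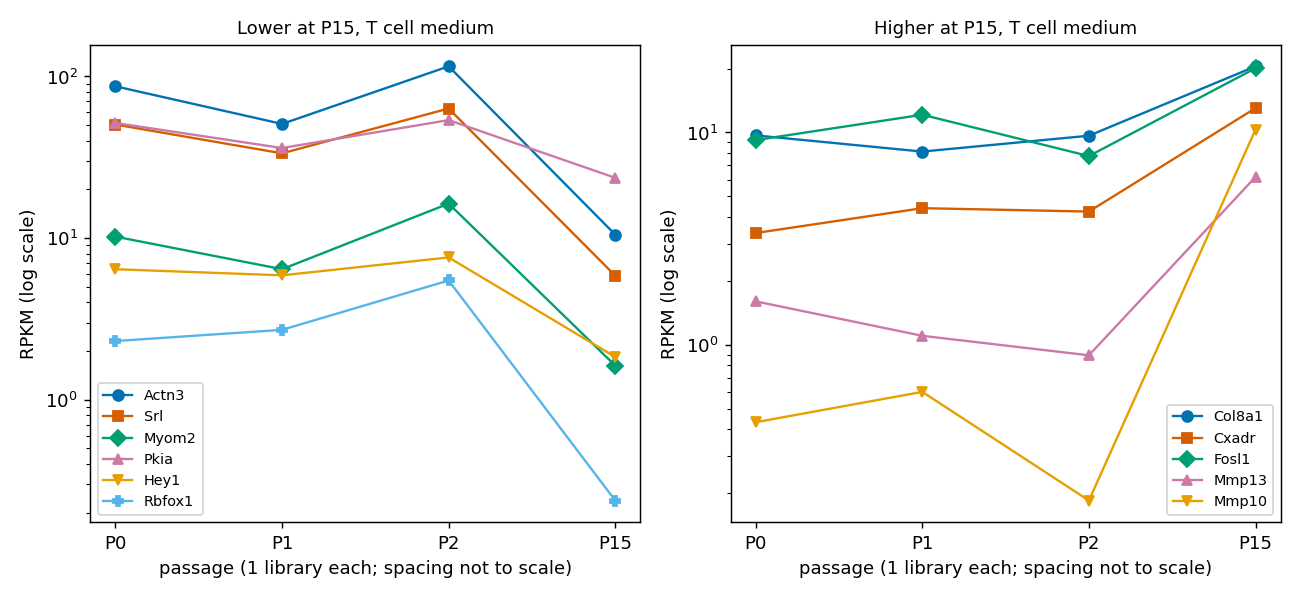
RPKM on a log axis for genes with the largest differences at P15, with 1 point per T cell medium library in the order P0, P1, P2 and P15. On the left Actn3 goes from 115.5 at P2 to 10.5 at P15, and on the right Mmp10 goes from 0.185 to 10.3.

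Regulators of the myogenic lineage did not share 1 direction. In the list of Notch, Wnt and myogenic regulators 7 of 13 genes had a positive and 6 a negative difference, with a median of 0.04. Hey1, a transcriptional repressor induced by Notch (chr3:8663359-8667256, minus strand), stood at 6.42, 5.88 and 7.59 RPKM at P0, P1 and P2 and at 1.84 at P15. The 3 early libraries were close together and P15 was 0.337 times the lowest of them (counting interval 0.253 to 0.444). limma gave -1.42 ± 0.27 and an adjusted p of 0.107. Hes1, another Notch-induced repressor, stood at 11.3, 14.8, 12.9 and 13.9 RPKM, with P15 inside the early range. Boc, a cell surface co-receptor that favours myogenic differentiation, was at 3.29, 3.33, 4.40 and 2.10 RPKM, and Igf2bp2, an RNA-binding protein of proliferating myoblasts, at 32.4, 32.4, 36.6 and 25.0. Both were lowest at P15. Tbx1, a T-box factor of pharyngeal muscle precursors, was at 8.08, 7.14, 9.95 and 14.1 RPKM, and Snai2, a zinc finger repressor of mesenchymal cells and myoblasts, at 23.1, 29.1, 26.9 and 39.0. Both were highest at P15.

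Rbfox1, a splicing regulator of muscle and neurons (chr16:5885355-7411526, plus strand), belongs to none of the lists. It stood at 2.31, 2.70, 5.46 and 0.238 RPKM, the last from 17 reads in run 1. The P15 level was 0.12 times that of P0, the lowest early library (counting interval 0.0677 to 0.2), and limma gave -1.79 ± 0.33 with an adjusted p of 0.0959.

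The matrix metalloproteases, secreted or membrane-bound enzymes that cut collagens and other matrix proteins, include a cluster of genes on chromosome 9. Of 9 genes of that cluster listed, 6 had a row in the windows and 3 reached 1 RPKM. For these 3 the RefSeq promoter windows are shown because 2 of them were highest at P15 and the third was highest at P0. Each window runs from 250 bases before the RefSeq gene start to 50 after it, on the plus strand of GRCm38.p6, at chr9:7502092-7502391 for Mmp10, chr9:7272264-7272563 for Mmp13 and chr9:7445572-7445871 for Mmp3. Capitals mark matches to TGANTCA, the core letters recognised by AP-1 factors such as the Fosl1 product, searched on both strands, where N is any base.
Mmp10: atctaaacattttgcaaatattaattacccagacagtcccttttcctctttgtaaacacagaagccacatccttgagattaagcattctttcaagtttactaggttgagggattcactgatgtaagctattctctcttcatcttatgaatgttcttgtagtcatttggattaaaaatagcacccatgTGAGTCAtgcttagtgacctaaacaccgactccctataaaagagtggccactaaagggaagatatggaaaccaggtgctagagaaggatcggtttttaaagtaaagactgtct
Mmp13: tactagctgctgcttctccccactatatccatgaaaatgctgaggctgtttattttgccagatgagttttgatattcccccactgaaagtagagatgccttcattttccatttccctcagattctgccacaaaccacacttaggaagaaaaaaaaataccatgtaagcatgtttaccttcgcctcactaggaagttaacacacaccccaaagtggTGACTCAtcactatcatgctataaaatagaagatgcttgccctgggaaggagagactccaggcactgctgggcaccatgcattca
Mmp3: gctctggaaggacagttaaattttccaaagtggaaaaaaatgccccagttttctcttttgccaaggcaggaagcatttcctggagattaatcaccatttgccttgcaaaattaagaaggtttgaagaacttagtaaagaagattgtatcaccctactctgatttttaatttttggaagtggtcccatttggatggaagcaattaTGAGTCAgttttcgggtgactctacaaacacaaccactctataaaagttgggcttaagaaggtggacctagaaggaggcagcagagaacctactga
Each window held 1 match, starting 63 bases before the RefSeq gene start in Mmp10, 35 in Mmp13 and 46 in Mmp3. For Mmp10 the RefSeq start lies upstream of the GENCODE start whose coordinates are given with the levels. Of the 32851 promoter windows of the same length in the table, 7.81% held at least 1 match.

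Mmp10, stromelysin-2 (chr9:7502352-7510240, plus strand), stood at 0.432, 0.601 and 0.185 RPKM at P0, P1 and P2 and at 10.3 at P15. In run 1 these were 9, 18, 5 and 274 reads. Against P1, the highest early library, P15 was 15.4-fold higher, with a counting interval of 9.59 to 26.5. Mmp13, collagenase-3 (chr9:7272514-7283331, plus strand), stood at 1.60, 1.10, 0.893 and 6.17 RPKM, a P15 level 3.84-fold over that of P0 (counting interval 2.87 to 5.21). Neither gene's early libraries overlapped with P15. The limma differences were 3.02 ± 1.12 for Mmp10 with an adjusted p of 0.363 and 1.72 ± 1.21 for Mmp13 with 0.631. In cytokine medium, whose libraries enter the same estimate of spread, Mmp10 ranged from 3.14 to 52.0 RPKM and Mmp13 from 3.32 to 72. With the 4 T cell medium libraries alone, the limma adjusted p of Mmp10 was 0.0133, the lowest over its alternatives, which reached 0.61. Mmp3, stromelysin-1, went the other way. It stood at 1.78, 0.162, 0.0354 and 0.0736 RPKM, which were 43, 5, 1 and 2 reads in run 1. Mmp3 and Mmp10 are close relatives, and no source used here says how reads that fit more than 1 gene were counted.

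Fosl1, which encodes the AP-1 subunit Fra-1 and is a target of ERK signalling, stood at 9.21, 12.1, 7.74 and 20.1 RPKM. The P15 level was 1.59-fold that of P1 (counting interval 1.38 to 1.82), and limma gave 1.00 ± 0.26 with an adjusted p of 0.228. Of its exon bases 57.2% overlap Ccdc85b on the other strand, and no source used here says whether counting used strand, so reads of the 2 genes cannot be told apart. Fosl1 led the list of FGF and ERK output, in which the other 8 of 9 genes were within 0.5 on the log2 scale, near the 87.4% of all 555 genes, and the median was -0.12. Etv5, an ETS factor induced by FGF, stood at 9.32, 15.4, 11.9 and 13.8 RPKM, with P15 inside the early range.

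Collagens and other matrix genes were divided. Of 15 listed, 13 reached 1 RPKM, with 6 positive and 7 negative differences and a median of -0.07. Col8a1, a short-chain network-forming collagen (chr16:57624258-57754737, minus strand), stood at 9.69, 8.13, 9.66 and 20.5 RPKM. The early libraries were close together, and P15 was 2.12-fold over P0 (counting interval 1.93 to 2.32). limma gave 1.08 ± 0.16, with an adjusted p of 0.07. The basement membrane chains Col4a1 and Col4a2, which share a promoter region and form 1 heterotrimer, had parallel values. Col4a1 stood at 13.1, 9.23, 15.0 and 19.0 RPKM and Col4a2 at 9.42, 7.82, 12.1 and 16.8, both highest at P15 by less than 2-fold. In the other direction were Adamts1, a secreted protease of proteoglycans, at 7.0, 4.36, 5.19 and 2.38 RPKM, and Vasn, a TGF-β-binding membrane protein, at 7.42, 8.31, 10.5 and 4.76. Adamts1 had a limma difference of -0.92 ± 0.21 with an adjusted p of 0.169.

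Among surface proteins of the immunoglobulin family and claudins, 9 of 13 listed genes reached 1 RPKM, with a median difference of 0.07. Cxadr, the coxsackievirus and adenovirus receptor of cell junctions (chr16:78301489-78359774, plus strand), stood at 3.36, 4.40, 4.24 and 13.0 RPKM. P15 was 2.94-fold over P1 (counting interval 2.64 to 3.29), and limma gave 1.49 ± 0.26 with an adjusted p of 0.0865. Of the Cxadr exon bases, 9.39% overlap Btg3 on the other strand. Cd80, a costimulatory ligand of T cells, had its lowest level at P0 and its highest at P15, with 1.05, 2.06, 3.19 and 4.10 RPKM. Cd47, a surface signal that restrains phagocytosis, stood at 10.2, 13.0, 12.8 and 16 RPKM, a narrower range. Cd200, an immune-inhibitory ligand, stood at 19.1, 8.53, 23.1 and 10.4 RPKM, with P15 between P1 and P0.

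Secreted ligands and guidance proteins gave 4 positive and 7 negative differences among 11 of 16 listed genes that reached 1 RPKM, with a median of -0.13. Pdgfd, a PDGF receptor β ligand, stood at 0.448, 3.94, 7.10 and 6.90 RPKM, so that P0 lay apart from the other 3 libraries and P15 was 0.976 times P2. Gas6, the ligand of TAM receptor kinases, stood at 51.3, 62.1, 157 and 53.2 RPKM, and Sema3d, a secreted semaphorin, at 4.09, 6.05, 26.0 and 2.55. In both, P2 was the library apart. The neuropeptide gene Gal had its lowest level there, with 14.6, 28.6, 3.39 and 17.9 RPKM. Its difference of 0.58 from the early mean became -0.18 without P2. Ephb3, an ephrin receptor, was at 3.40, 1.41, 4.66 and 1.19 RPKM, and Chrd, a BMP antagonist, at 0.906, 0.227, 1.3 and 0.0916.

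Replication and division genes were close to their early level at P15. All 22 listed genes reached 1 RPKM, all 22 differed from the early mean by at most 0.5 on the log2 scale, beside 87.4% of the 555 genes, and the median was 0.01. Mcm4, a subunit of the replicative helicase, stood at 68.9, 68.3, 56.5 and 68.1 RPKM. Cdc45, which activates that helicase, stood at 22.1, 20.1, 14.4 and 18.4, and Dbf4, the activator of the Cdc7 kinase, at 14.4, 14.1, 10.7 and 15.7. In all 3 the P2 library was the lowest. Rad9a, of the checkpoint clamp, was at 15.2, 15.5, 12.9 and 20.0 RPKM, and Cdk6, a kinase of G1 phase, at 15.5, 19.4, 13.5 and 12.5. Of the Rad9a exon bases, 9.53% overlap Ppp1ca on the other strand. limma called 0 of the 22, and the lowest adjusted p in the list was 0.314. The sum over the list was 846, 887, 630 and 839 RPKM, so the level at P2 was below the other 3.

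Interferon and cytokine response genes, of which 10 of 12 listed reached 1 RPKM, had a median difference of -0.08, and 3 of the 10 were under every early library, near the 23.2% of the 555 genes and 27.8% of all rows. Parp14, an interferon-induced ADP-ribosyltransferase, stood at 4.52, 6.19, 7.72 and 6.35 RPKM, with P15 inside the early range. Socs1, a feedback inhibitor of JAK and STAT signalling, stood at 17.1, 16.7, 15.7 and 13.3, lowest at P15 by 0.848 times the nearest library. Unc93b1, which carries nucleic acid-sensing Toll-like receptors to endosomes, was at 7.61, 6.38, 9.33 and 3.57 RPKM, with a limma difference of -0.93 ± 0.20 and an adjusted p of 0.14. Ciita, the coactivator of MHC class II genes, was at 0.637, 0.470, 1.11 and 0.181 RPKM. The 5 interferon and cytokine receptor genes had a median of 0.14. Il1rap, the IL-1 receptor accessory protein, had the largest of these differences, at 1.72, 1.62, 0.649 and 2.30 RPKM.

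NF-κB and cell death genes gave 8 positive and 2 negative differences among 10 of 12 listed genes, beside 304 positive and 251 negative among the 555 genes. The list median was 0.16, and 4 were above every early library, where 29.9% of the 555 genes and 24.9% of all rows were. Nfkbiz, a nuclear IκB protein, stood at 12.3, 12.7, 24.7 and 26.8 RPKM, so that P2 and P15 were close (1.06-fold) and both above P0 and P1. Litaf, a lysosomal membrane protein induced by lipopolysaccharide, was at 29.4, 39.0, 29.8 and 51.7, and Rela, the p65 subunit of NF-κB, at 25.3, 28, 27.6 and 34.6. Casp12, a caspase of the endoplasmic reticulum, was at 5.26, 7.86, 12.3 and 10.9 RPKM, inside the early range at P15.

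Metabolic and maintenance genes were mostly close to their early level. Of 19 nuclear genes for mitochondrial proteins 18 were within 0.5 on the log2 scale (94.7%, beside 87.4% of the 555 genes), and the median was -0.00. The exception was Pcx, pyruvate carboxylase, at 5.04, 1.94, 5.27 and 1.5 RPKM, where P1 and P15 were both low. Cpt1a, which admits fatty acids to mitochondria, stood at 39.8, 62.6, 73.7 and 71.9, with P0 the lowest. All 10 genes of secretory pathway folding (median 0.14) and all 14 of translation, proteasome and cytoskeleton (median 0.05) were within 0.5. Among 8 redox and detoxification genes, with a median of 0.03, Abcb1b stood out. It encodes a P-glycoprotein drug exporter and stood at 5.94, 5.87, 5.61 and 10.6 RPKM, a P15 level 1.77-fold over P0 (counting interval 1.56 to 2.02), with a limma difference of 0.77 ± 0.12 and an adjusted p of 0.0739. Abcc5, another exporter of the same superfamily, was at 3.11, 2.57, 4.11 and 1.91 RPKM, lowest at P15.

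**Figure D3:**
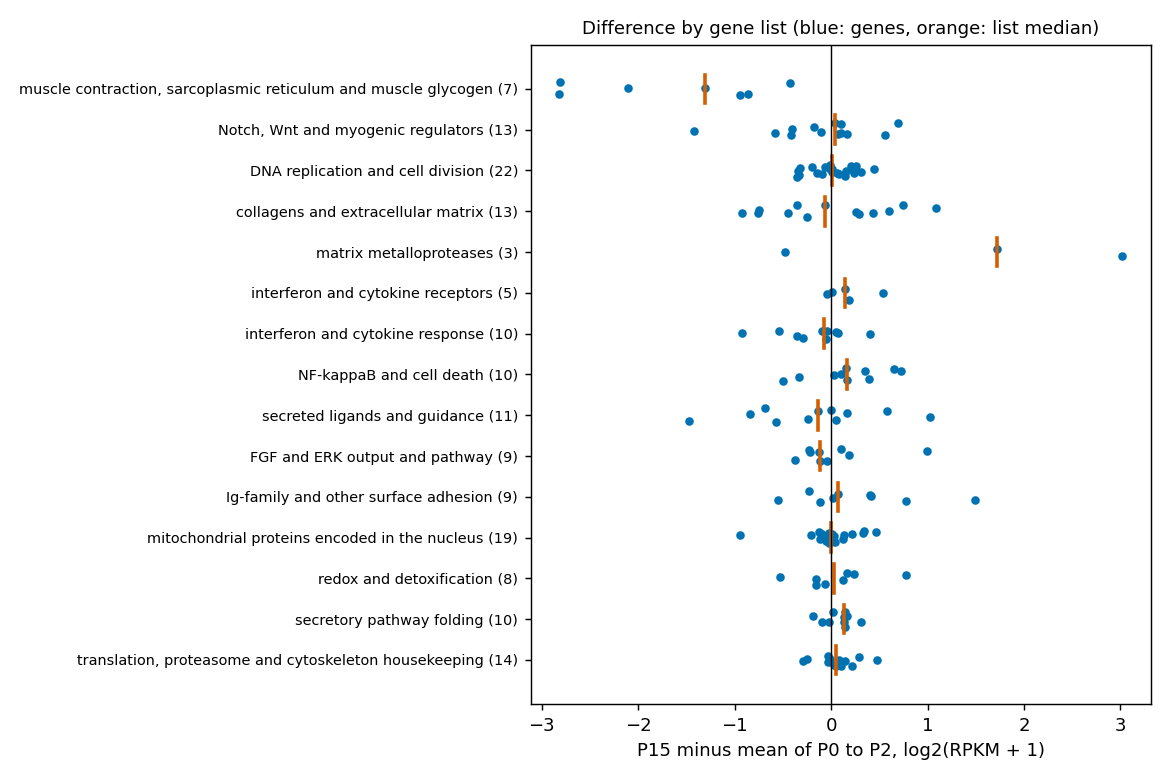
Difference of P15 from the mean of P0, P1 and P2 on the log2(RPKM + 1) scale (horizontal axis) for each gene (blue points, vertical jitter only to separate them) of each list, with the list median in orange and the number of genes in brackets. The 7 muscle genes all lie left of 0 around a median of -1.30, and the 22 replication genes lie within 0.5 of 0.

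Genes of other functions filled the rest of the largest differences. Higher at P15 were Rin1, a Ras effector and Rab5 exchange factor, at 10.1, 12.9, 12.4 and 23.2 RPKM, and Pla1a, a phosphatidylserine-specific phospholipase, at 1.89, 1.81, 3.42 and 5.39. Filip1l, a protein that binds the cytoskeleton, was at 12.3, 7.14, 13.3 and 18, and Ctxn1, a small membrane protein first known from brain cortex, at 14.8, 30.4, 30.3 and 39.7. Each was above all 3 early libraries. Lower were Akap9, a scaffold of the centrosome and Golgi, at 5.73, 3.83, 6.69 and 2.63 RPKM, and Zfhx4, a zinc finger homeobox factor, at 3.52, 6.65, 5.12 and 2.35. Emp2, a tetraspan membrane protein, was at 24.0, 15.5, 15.0 and 11.2, and was the 1 gene of the 555 that was lower at each later passage with a range of 2-fold or more.

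The order of passages was then followed for the 54 genes (9.73% of 555) whose highest and lowest T cell medium libraries differed by at least 2-fold. In the 9 genes named above, P15 was outside the early libraries by at least 2-fold on the log2(RPKM + 1) scale. In a further 7, P2 and P15 were both at least 2-fold from P0 in the same direction. Of these 7, Stmn2, a microtubule regulator of growing neurites, stood at 0.777, 8.01, 14.9 and 16.8 RPKM, and Cnih2, an auxiliary protein of AMPA receptors, at 1.64, 3.80, 7.44 and 9.63. Pdgfd, Cd80, Masp1 and A330021E22Rik were also low at P0 and high at P2 and P15, and Mmp3 was the reverse. Levels were higher at each later passage in 5 of the 54 genes, Nfkbiz, A330021E22Rik, Cd80, Cnih2 and Stmn2. In another 9 genes the P2 library was apart from P1 and P15, among them Gas6, Sema3d, Pygm, Cd200 and Gal, with values given above. That rule leaves P0 aside, and for Cd200, Pcx and Ephb3 the P0 level was nearer to P2 than to P1 or P15. The remaining 29 fell in none of these patterns.

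**Figure D4:**
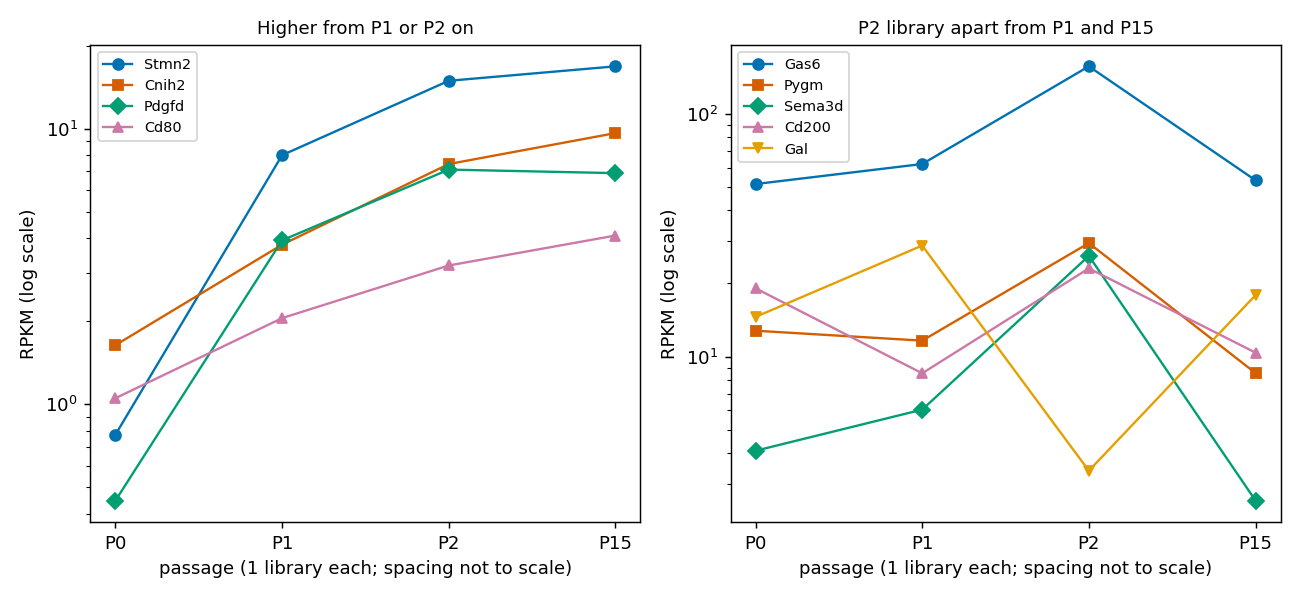
RPKM on a log axis for 1 library per passage in T cell medium, with genes that were high from P1 or P2 on (left) and genes for which the P2 library was apart from P1 and P15 (right). Cd200 was close at P0 and P2. Stmn2 goes from 0.777 at P0 to 16.8 at P15, and Gas6 stands at 157 at P2 against 53.2 at P15.

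The P2 and P15 libraries were the extremes of most of these 54 genes. P15 was the highest or lowest library in 37, P2 in 36, P0 in 19 and P1 in 16, each gene counting once for its highest and once for its lowest. Over the 555 genes, the standard deviation of the log2 difference was 0.54 between P2 and P15, 0.51 between P0 and P15 and 0.39 between P1 and P15. Between early libraries it was 0.36 for P0 and P1, 0.41 for P0 and P2 and 0.42 for P1 and P2, so P15 was about as far from P1 as P2 was. P15 was at least 2-fold above P0 in 15 genes (2.7%) and below it in 12 (2.16%). Against P1 it was 10 (1.8%) and 6 (1.08%), and against P2 10 (1.8%) and 18 (3.24%). The same comparison of P1 with P0 gave 3 higher (0.541%) and 4 lower (0.721%), and of P2 with P1 13 higher (2.34%) and 4 lower (0.721%).

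Markers of other cell types were summed over their listed genes in the windows. The neuron and glia list had 7 genes, of which 5 had a row in the windows and 3 reached 1 RPKM (Stmn2, Cnih2 and Gap43). Its sum was 4.88, 13.4, 22.9 and 31.1 RPKM at P0, P1, P2 and P15, and 1 of the 5 was at 0 in all T cell medium libraries. Gap43, a growth cone protein, stood at 2.46, 1.55, 0.585 and 4.57. Leukocyte markers, with 5 of 10 listed genes reaching 1 RPKM, summed to 9.95, 8.34, 12.2 and 5.97 RPKM, mostly Unc93b1. Fibroblast markers (4 of 5) summed to 74.7, 55.2, 72 and 84.2, smooth muscle and pericyte markers (2 of 4) to 8.70, 10.3, 10.2 and 12.8, and endothelial markers (2 of 3) to 11.4, 15.6, 12.4 and 12.5. Members of these lists did not share 1 direction. Leukocyte markers had 2 positive and 3 negative differences, and fibroblast markers 2 and 2. Smooth muscle and pericyte markers had 1 and 1, as had endothelial markers. Cd248 was in both the fibroblast list and the smooth muscle and pericyte list. None of the 2 adipocyte markers with a row in the windows (3 listed) or the 5 epithelial markers reached 1 RPKM, and their sums were at most 0.0494 and 0.781. The part of these cell types in the differences at P15 was not tested.

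The same passages in cytokine medium show where the P15 levels stood relative to the other culture. In that medium 2 genes were at least 2-fold above and 1 at least 2-fold below P0 to P2 at P15. All 9 genes that were 2-fold outside the early range in T cell medium had their 3 early T cell medium levels outside the range of the 4 cytokine libraries, which held for 25.9% of the 555 genes. At P15 all 9 were nearer to the cytokine mean than the early T cell libraries had been, where 61.4% of the 555 genes were. Of the 9, 6 lay inside the cytokine range, against 53.0%. The 9 were picked by the same P15 and early values, so these shares describe them and test nothing. Actn3 in cytokine medium stood at 14.7, 4.79, 11.6 and 8.44 RPKM, beside 10.5 at P15 in T cell medium. Srl stood there at 9.22, 4.90, 6.89 and 5.03, beside 5.85. Cxadr stood at 7.25, 12, 11.8 and 14.9, beside 13.0. Col8a1, at 29.3, 34.9, 31.7 and 30.4 RPKM in cytokine medium, was above the 20.5 of T cell medium at P15. Myom2 and Hey1 were at most 1.52 and 1.61 RPKM in cytokine medium, just under their P15 levels of 1.62 and 1.84.

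**Figure D5:**
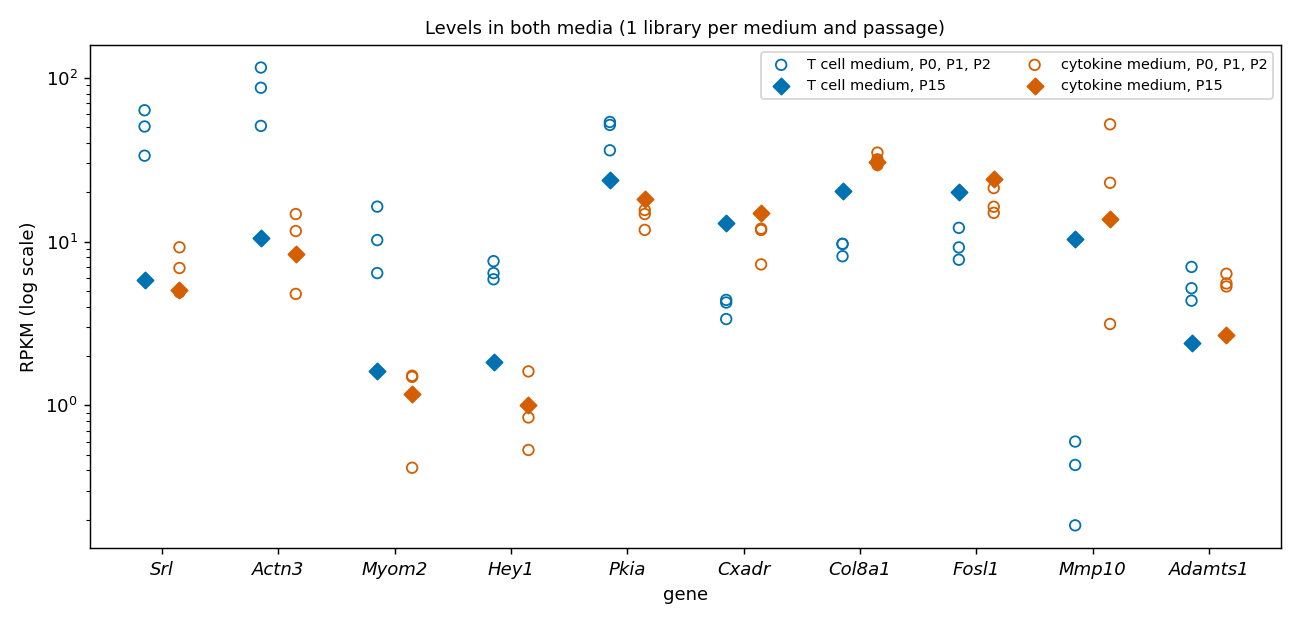
RPKM on a log axis for 10 genes in T cell medium (blue) and cytokine medium (orange), with open circles for P0, P1 and P2 and a filled diamond for P15, 1 library each. The blue diamonds of Srl (5.85) and Actn3 (10.5) lie within the orange range, while the early blue circles lie above it.

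Whether the P15 difference itself differed between the media was tested with the interaction contrast in limma. At an adjusted p under 0.05 it called 0 genes higher (0.0%) and 0 lower (0.0%), with 7 (1.26%) and 10 (1.8%) at an unadjusted p under 0.05 (1.33% and 1.93% over all rows) and a lowest adjusted p of 0.819 over all rows. The contrast was -2.45 ± 0.53 (SE) for Srl, -2.67 ± 0.82 for Actn3, -2.18 ± 0.66 for Myom2 and -1.46 ± 0.38 for Hey1, each with a limma adjusted p of 0.999. For Col8a1 it was 1.15 ± 0.23 and for Mmp10 3.26 ± 1.58. Adamts1 and Zfhx4 were lower at P15 in both media. Adamts1 stood at 6.36, 5.32, 5.55 and 2.70 RPKM in cytokine medium, a contrast of -0.06 ± 0.30, and Zfhx4 at 3.73, 4.13, 3.48 and 1.49, a contrast of 0.10 ± 0.36. None of these contrasts passed the test in this fit. Calls of the next fit are given among the 555 genes only, and some rows that cannot be named were called too. With passage terms shared by both media, limma called 0 genes higher and 4 lower in the same contrast, and all 4 were of the muscle list. They were Actn3 (-2.67 ± 0.31), Srl (-2.45 ± 0.28), Myom2 (-2.18 ± 0.25) and Pygm (-2.01 ± 0.22), each with a limma adjusted p of 0.0488, just under the threshold of 0.05. The call that the P15 difference of these 4 genes differed between the media thus rests on that setting alone. The P15 difference of Pygm in T cell medium was only -0.87 ± 0.16 in that fit. The rest of its contrast was a higher level at P15 than at the early passages in cytokine medium.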

How the data were processed

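RNA libraries (TruSeq, total RNA) were deposited as 1 table of RPKM values by the authors, with 2 columns per library. TopHat2 2.0.1, HTSeq 0.5.4p2 and the build mm10 are named per the submitters' processing notes; no source used here gives the strand setting, annotation or scaling. Whole reads were recovered from the RPKM steps in 10931 of 10934 rows above 0 (within 0.02 of a read). The 2 columns of a library differed by less than sampling noise (mean chi-square per row 0.453 to 0.485 in T cell medium, against at least 10.5 between libraries), so their mean was 1 sample.

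Names were used only in the windows, assigned by gene start (4 genes extend past a limit, Myom2, Mrps6, Rasgrp2 and Snx9), with coordinates from GENCODE vM21. Levels are not compared between genes. Rows with at least 1 RPKM in any library (3686) were fitted as log2(RPKM + 1), which understates changes of low genes. The fit used limma 3.58.1 (R 4.3.3, trend, Benjamini-Hochberg over all rows, threshold 0.05). Rescaling the libraries to the same sum moves the median difference of the 555 genes from 0.03 to -0.07. Counting intervals are exact, at 95%, from run 1. Named genes were the 15 largest differences in each direction with at least 5 RPKM in T cell medium, the genes passing limma and the listed genes. The members, the windows and the gene lists were chosen with earlier results of these data known.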

Additional observations from a re-analysis of the deposited data

How the results depend on the processing

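The number of the 555 genes called by limma at P15 depended on the setting. Higher genes were 1 without a filter (Abcb1b), 1 with the T cell medium libraries alone (Mmp10) and 4 with passage terms shared by both media, and lower genes were 9 with those passage terms. Leaving out 1 early passage gave 0 to 2 higher and 0 to 6 lower. Without P1 they were 2 (Abcb1b and Col8a1) and 6 (Akap9, Pcx, Pkia, Popdc2, Srl and Unc93b1), and without P2 they were 0 and 1 (Rbfox1). The other settings, which were a pseudocount of 0.1, a filter of 5 RPKM, rescaling, quantile normalization, either column alone, no trend and named rows alone, gave 0 in both directions. The interaction contrast called 4 lower genes with the passage terms (Actn3, Myom2, Pygm and Srl) and 0 named genes under the other settings that can give it (the T cell medium libraries alone cannot). Genes 2-fold outside the early libraries numbered 3 to 7 above (3 after rescaling and with the first column alone, 5 without P0 or P1, 7 without P2) and 5 to 9 below (7 at a pseudocount of 0.1, 9 without P1). At a pseudocount of 0.1, P15 was 2-fold above P0 in 26 genes and below in 25, above P1 in 22 and below in 12, and below P2 in 35. With rescaling, 6 genes were above P2. Of 985 pairs of a followed gene and a setting, 953 kept direction and side of the threshold, 23 passed it and 9 changed sign. The filters, named rows alone, no trend, the passage terms and the T cell medium libraries alone leave the difference itself unchanged by construction. No followed gene passed the threshold in the first fit, so keeping its side means only that it was still not called. These counts are therefore no measure of robustness. The changes of sign, in log2 differences near 0 apart from Gal, were Hes1 (-0.0087), Mcm4 (-0.031) and Parp14 (-0.0324) after rescaling and Mcm4 (-0.0932) after quantile normalization. Leaving out 1 early passage gave -0.186 to 0.106 for Cdc45, -0.185 (without P2) to 1.19 for Gal, -0.00907 to 0.132 for Mcm4 and -0.107 to 0.223 for Parp14. The cause of these changes was not tested. Low depth limits Popdc2, Mmp3 and the early levels of Mmp10, with 1 to 43 reads. No paired analysis was possible because no replicate numbers beyond 1 exist within a medium and passage; the fit with passage terms pairs the media by passage instead.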
